A study of Mus musculus with 23 samples.

Results

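Txnip and the thioredoxin system were followed here as 6 of the 56748 genes in the count table, namely Txnip, its relative Arrdc4, the thioredoxins Txn1 and Txn2, and the thioredoxin reductases Txnrd1 and Txnrd2. Txnip was chosen because of its values in the combination groups against their controls by both routes, so every comparison and correlation of Txnip that uses a control or a combination group is given as a description, with no test. The other 5 genes were chosen by their names and roles, with earlier results of these data known. All 6 passed the filter on low counts in each model that was fitted.

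RNA was sequenced from the 3′ end in 23 subcutaneous tumors grown from B16-F1 cells, a mouse melanoma line, in inbred DBA/2J mice that were 6 to 8 weeks old. The IP tumors came from mice treated by intraperitoneal injection: CONTROL_IP received saline solution, PTX_IP received 60 mg/kg pentoxifylline, NCTD_IP received 3 mg/kg norcantharidin, and MIX_IP received both doses, with 2 tumors in each group. The IT tumors were injected directly: CONTROL_IT received DMSO (4 tumors), PTX_IT the same pentoxifylline dose (3 tumors), NCTD_IT the same norcantharidin dose (4 tumors) and MIX_IT both (4 tumors). Pentoxifylline is a methylxanthine inhibitor of phosphodiesterases, and norcantharidin is a demethylated analog of cantharidin known as an inhibitor of protein phosphatases. The labels give the route as the batch and the vehicle differed with it, so route, batch and vehicle cannot be told apart. B16-F1 arose in a mouse strain other than its host here, which limits these tumors as a model, and all tumors come from the same line. The study's methods describe cells implanted on 1 flank of each mouse, while the labels name no animals, and p-values measure only the spread between these tumors.

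Thioredoxins are small proteins that reduce disulfide bonds in other proteins and are themselves kept reduced by thioredoxin reductases, which are selenoproteins that draw on NADPH. Txnip is an arrestin-domain protein that binds thioredoxin and also limits glucose uptake by removing glucose transporters from the cell surface. Its transcription is known to respond to glucose through the factors MondoA and ChREBP with their partner Mlx, which bind paired E-boxes called carbohydrate response elements, and Arrdc4 is regulated in a like way.

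The promoters of Txnip and Arrdc4 are shown because that of Txnip holds the letters of a paired E-box and that of Arrdc4 those of a single one. Each is the 250 bases before the canonical start in GENCODE vM39, on genome build GRCm39, read on the strand of the gene. Txnip (ENSMUSG00000038393) lies on chr3:96465273-96469199, plus strand, and its promoter on chr3:96465017-96465266 holds a pair of E-box-like sequences 5 bases apart, printed in capitals with the bases between them.
Txnip: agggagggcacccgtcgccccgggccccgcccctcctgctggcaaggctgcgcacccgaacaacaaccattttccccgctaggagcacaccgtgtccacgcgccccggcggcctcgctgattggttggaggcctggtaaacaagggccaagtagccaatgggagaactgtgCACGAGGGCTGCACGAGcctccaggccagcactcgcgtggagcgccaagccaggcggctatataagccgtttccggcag
Arrdc4 (ENSMUSG00000042659) lies on chr7:68386743-68398989, minus strand, and its promoter on chr7:68399000-68399249 holds a single E-box, in capitals.
Arrdc4: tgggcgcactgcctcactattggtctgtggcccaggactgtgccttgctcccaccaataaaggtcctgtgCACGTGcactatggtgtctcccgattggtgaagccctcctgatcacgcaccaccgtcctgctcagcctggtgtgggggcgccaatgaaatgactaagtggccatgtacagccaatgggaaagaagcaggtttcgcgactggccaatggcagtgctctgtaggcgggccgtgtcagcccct
The pattern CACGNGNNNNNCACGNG, searched on both strands, matched 11 of 21770 promoters of the same length (0.0505%), and Txnip, with its match from -79 to -63 before the start, was the 1 member among them. CACGTG matched 6.26% of promoters, and among the members only that of Arrdc4, from -180 to -175. Of the other patterns searched on both strands, TGACNNNGC, the core of the antioxidant response element, matched 9.69% of promoters and those of Arrdc4 and Txnrd1. CCAAT matched 36.5% of promoters, with 2 matches in Txnip, 6 in Arrdc4 and 1 each in Txn2 and Txnrd1. None of these patterns overlapped another within the members' promoters. A match is a description of letters and no evidence of binding.

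Total counts ran from 2861578 to 6702374 per tumor with a median of 4013068, so that 3 counts correspond to 0.448 to 1.05 CPM, the floor used here, where CPM is the count scaled to library size after TMM normalization. This floor covers counting error only. The strand setting of the counting is not given in the sources used here, so a member's count may hold reads of genes that overlap it on the opposite strand. The 7 melanocyte markers were above 0 in every group, with a summed level between 15320 and 37160 CPM, which matches the labelled tumor type. The labels give no sex of the mice and the study's methods describe the treatment groups as matched for sex, but the sex-linked transcripts differed between the IT groups. Xist, the RNA of the inactive X chromosome, lay between 5.19 and 13.6 CPM in the 4 NCTD_IT tumors and at 9.20, 11.6 and 1.28 CPM in the PTX_IT tumors, but at no more than 0.566 CPM in CONTROL_IT and at 0 in MIX_IT. Y-linked Ddx3y lay between 1.03 and 8.98 CPM in CONTROL_IT and between 6.83 and 15.5 CPM in MIX_IT, against at most 0.294 CPM in NCTD_IT and 0.279 CPM in PTX_IT. In the IP tumors, Xist was found in 1 tumor, CONTROL_IP replicate 2, at 8.26 CPM.

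By group mean, Txnip was highest in the drug-treated groups of the intratumoral route and lowest in the combination group of the intraperitoneal route. The lowest single tumors were PTX_IP replicate 4, at 142 CPM, and PTX_IT replicate 16, at 170.3 CPM. Txnip is one of the members with ample counts, from 652 to 4745 per tumor. The 2 CONTROL_IP tumors held 360.1 and 472 CPM of Txnip. The 2 NCTD_IP tumors held 243 and 397 CPM, and the 2 PTX_IP tumors 377 and 142 CPM. In MIX_IP the values were 179 and 193 CPM, both below both controls, as in 18.9% of genes. Each single-drug group had 1 tumor within the range of the controls and 1 below it.

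By the intratumoral route, the 4 CONTROL_IT tumors held 234, 562, 267 and 254 CPM of Txnip. The 4 NCTD_IT tumors held 825, 1048, 777 and 917 CPM, and the 4 MIX_IT tumors 588, 716, 809 and 677 CPM. Every tumor of both groups was above the highest control, as in 7.82% of genes for NCTD_IT and 4.93% for MIX_IT. The 3 PTX_IT tumors were far apart, with 754 and 1261 CPM in replicates 13 and 15 and 170.3 CPM, below all 4 controls, in replicate 16.

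**Figure D1:**
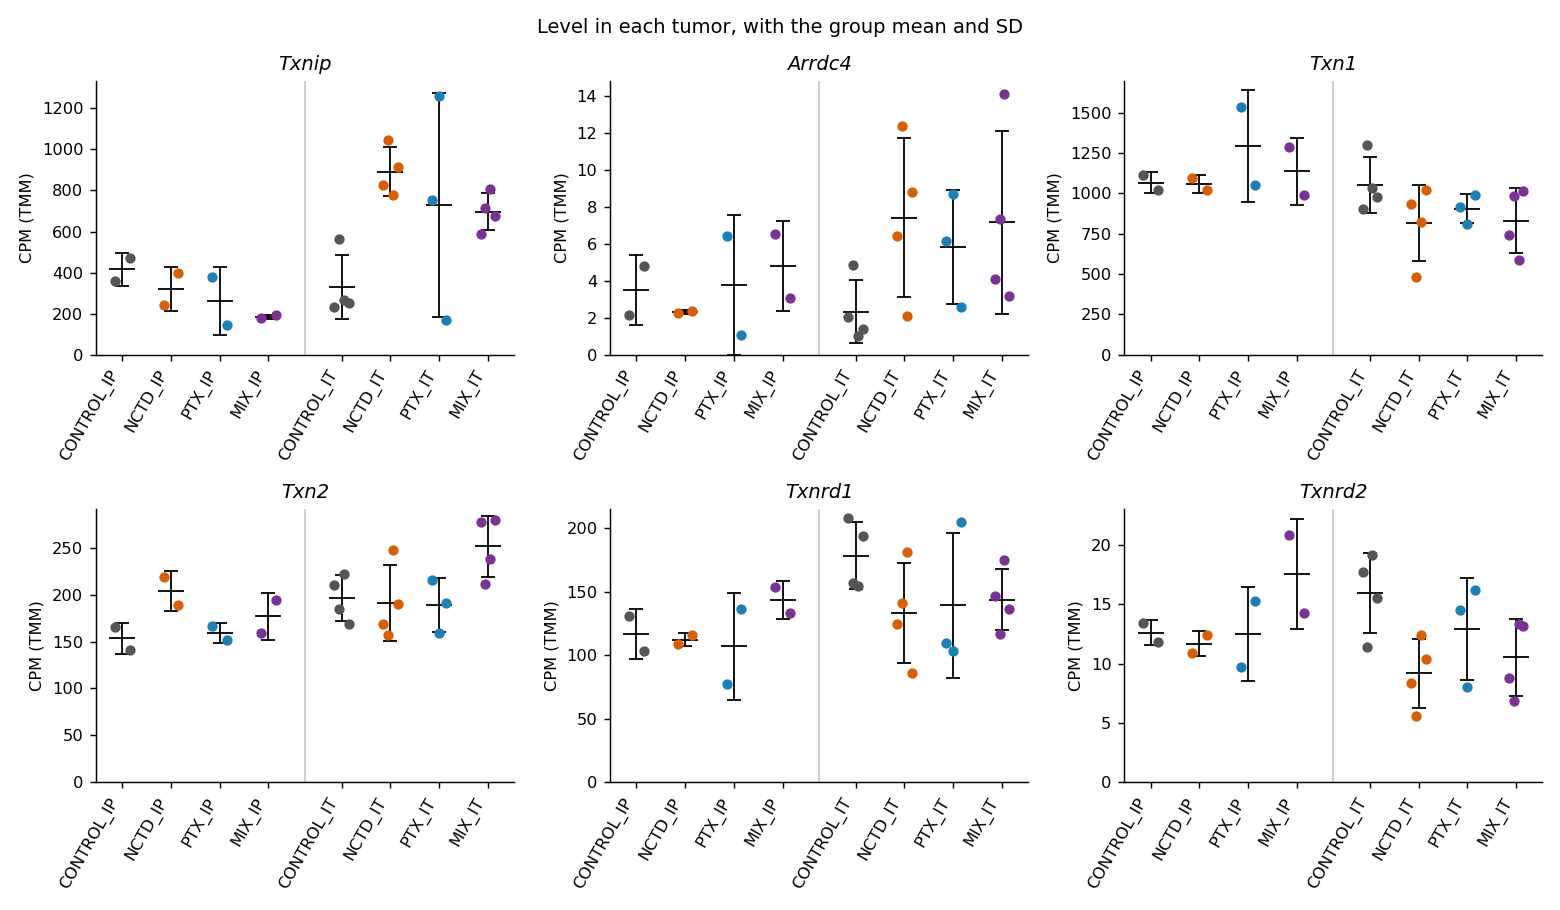
Level of each member in CPM (TMM-scaled, y axis, from 0 in each panel) in the 8 groups (x axis); each point is 1 tumor, and the lines give the group mean and its SD. Txnip lies at 179 to 193 CPM in MIX_IP and at 588 to 1048 CPM in MIX_IT and NCTD_IT, while the groups of the other 5 genes overlap with their neighbours in level.

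In order of the mean, Txnip stood at 891 ± 119 CPM in NCTD_IT (SD, n = 4), 728 ± 546 in PTX_IT (n = 3), 697 ± 91.7 in MIX_IT (n = 4), 416 ± 79.1 in CONTROL_IP (n = 2), 329 ± 156 in CONTROL_IT (n = 4), 320.1 ± 109 in NCTD_IP (n = 2), 259.9 ± 166 in PTX_IP (n = 2) and 186 ± 9.72 in MIX_IP (n = 2). The only neighbours in this order whose tumors did not overlap were MIX_IT and CONTROL_IP. For the other 5 members, the tumors of each group overlapped with those of the next group in order.

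Set side by side for norcantharidin, the log2 fold change of Txnip against the control of the same route was -0.38 (SE 0.40) by the intraperitoneal and 1.43 (SE 0.41) by the intratumoral route. For pentoxifylline the values were -0.68 (SE 0.40) and 1.13 (SE 0.43). For the combination they were -1.15 (SE 0.40), or 0.451 of the control level, and 1.08 (SE 0.41), or 2.11-fold. All 3 differences were thus negative by one route and positive by the other, in a gene that was chosen for this pattern in the combination. The 3 treatments of a route share its control tumors, and the 2 CONTROL_IP tumors enter each intraperitoneal value. The intratumoral minus the intraperitoneal effect was 1.81 (SE 0.70) for norcantharidin, 1.82 (SE 0.72) for pentoxifylline and 2.24 (SE 0.71) for the combination, on the log2 scale. With Xist as a covariate these values were -0.13 (SE 0.97), -0.13 (SE 0.98) and 1.75 (SE 0.64), so that the first and second turned sign. Xist moved with NCTD_IT and PTX_IT, so the covariate cannot adjust for sex in the first and second.

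Single tumors moved several of these values. Without CONTROL_IT replicate 10, the control tumor with 562 CPM of Txnip, the log2 fold change was 1.84 in NCTD_IT, 1.53 in PTX_IT and 1.47 in MIX_IT. The PTX_IT value was 0.49 without replicate 15 and 1.59 without replicate 16. By the intraperitoneal route, PTX_IP gave -1.55 without replicate 3 and -0.15 without replicate 4. The NCTD_IP values without 1 tumor ran from -0.75 to -0.07, and those of MIX_IP from -1.33 to -0.94.

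**Figure D2:**
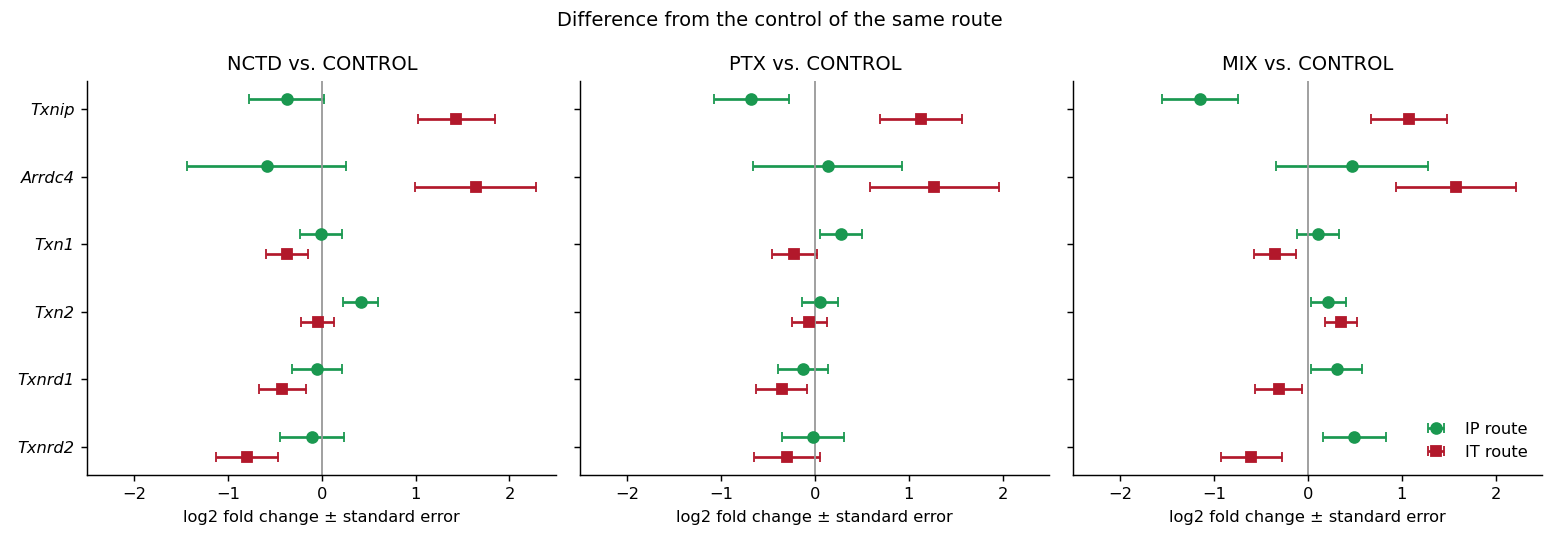
Log2 fold change against the control of the same route (x axis) for each member (y axis), in panels for NCTD, PTX and MIX; circles are the intraperitoneal and squares the intratumoral route, and bars are 1 SE. Txnip lies below 0 by the intraperitoneal and above 0 by the intratumoral route in all 3 panels, and the largest separation, 2.24, is in MIX.

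Comparisons among the single-drug groups contrast none of the tumors by which Txnip was chosen. They were tested with edgeR's quasi-likelihood test with Benjamini-Hochberg adjustment over all genes. The fitted models held the control and combination tumors too, so the SE and p-values rest in part on the tumors that chose Txnip. These comparisons were also chosen with earlier results of these data known, so their p-values are no independent test of Txnip. NCTD_IT had 1.48 more Txnip than NCTD_IP on the log2 scale (SE 0.53, unadjusted p = 0.0108, adjusted p = 0.285), and all 4 NCTD_IT tumors lay above both NCTD_IP tumors, as did 10% of the 13395 genes tested. PTX_IT had 1.49 more than PTX_IP (SE 0.55, unadjusted p = 0.0129, adjusted p = 0.999), with overlapping tumors. Neither difference passed the adjusted threshold of 0.05, which 1 gene (0.00747%) passed for norcantharidin and 0 (0%) for pentoxifylline. For comparison, the control tumors of the routes differed by -0.34 (SE 0.49) in Txnip. Between the drugs, Txnip in NCTD differed from PTX by 0.30 (SE 0.40, adjusted p = 1.0) by the intraperitoneal and by 0.30 (SE 0.44, adjusted p = 0.999) by the intratumoral route, less than the spread between replicates. Without the filter on low counts, the Txnip differences between the routes passed, at 1.45 (SE 0.26, adjusted p = 1.54e-05) for norcantharidin and 1.48 (SE 0.27, adjusted p = 4.6e-05) for pentoxifylline, as did 0.836% and 0.203% of all genes. With Xist as a covariate both values were 0.03 (SE 0.75 and 0.77, adjusted p = 0.994 and 1.0). Xist was at 0 CPM in NCTD_IP and PTX_IP, but at 1.28 CPM or more in every NCTD_IT and PTX_IT tumor. Ddx3y was at 3.28 CPM or more in the former and at most 0.294 CPM in the latter. Sex and route thus cannot be told apart in these comparisons between the routes, and the covariate cannot adjust for sex.

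Sex-linked and immune transcripts moved with several of the Txnip values. Xist, given above, was high in NCTD_IT and in the 2 PTX_IT tumors with high Txnip, low in the PTX_IT tumor with 170.3 CPM, and at 0 counts in MIX_IT, where Txnip was high as well. With Xist as a covariate, the log2 fold change of Txnip was -1.36 (SE 0.70) in NCTD_IT, -1.62 (SE 0.69) in PTX_IT and 1.39 (SE 0.30) in MIX_IT. By the intraperitoneal route it was -0.17 in NCTD_IP, -0.47 in PTX_IP and -0.94 in MIX_IP. There the covariate rests on CONTROL_IP replicate 2, the 1 IP tumor with Xist and the control with more Txnip, at 472 CPM. In NCTD_IT and PTX_IT the sex-linked transcripts separate all tumors from the controls, so that sex and drug cannot be told apart there. The Xist covariate therefore cannot adjust for sex in these groups. The part of sex in the Txnip values was not tested beyond this covariate.

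The 9 myeloid markers, all above 0 in every group, had a summed level of 180.0 to 823 CPM in CONTROL_IT, 455 to 1470 CPM in NCTD_IT, 143.8 to 983 CPM in PTX_IT and 257 to 566 CPM in MIX_IT. By the intraperitoneal route the sums were 677 to 759 CPM in CONTROL_IP, 578 to 1065 CPM in NCTD_IP, 255.5 to 1309 CPM in PTX_IP and 598 to 772 CPM in MIX_IP. The tumor with the least Txnip in each PTX group was also the one with the lowest myeloid sum of its group, and CONTROL_IT replicate 10 had both the most Txnip and the highest myeloid sum of the IT controls. With the myeloid sum as a covariate, added after seeing the data, the log2 fold change of Txnip was 0.87 (SE 0.28) in NCTD_IT, 0.63 (SE 0.29) in PTX_IT, 1.19 (SE 0.26) in MIX_IT and -1.10 (SE 0.20) in MIX_IP. The effect by the intratumoral minus that by the intraperitoneal route was 1.38 (SE 0.42) for norcantharidin, 1.30 (SE 0.43) for pentoxifylline and 2.30 (SE 0.42) for the combination with this covariate. In bulk tumors, more cells of a type and more RNA per cell cannot be told apart.

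Arrdc4, the arrestin-domain protein closest to Txnip, was measured by only 4 to 58 counts per tumor, and its lowest values are near the floor. By the intraperitoneal route it stood at 2.14 and 4.81 CPM in CONTROL_IP, 2.24 and 2.39 CPM in NCTD_IP, 6.44 and 1.09 CPM in PTX_IP, and 6.52 and 3.09 CPM in MIX_IP. No IP group stood apart from its control. By the intratumoral route the CONTROL_IT tumors held 2.06, 4.82, 1.01 and 1.41 CPM, and the NCTD_IT tumors 6.43, 12.3, 2.07 and 8.80 CPM. The PTX_IT tumors held 6.13, 8.70 and 2.57 CPM, and the MIX_IT tumors 4.07, 7.34, 14.1 and 3.16 CPM. Above the highest control were 3 NCTD_IT, 2 PTX_IT and 2 MIX_IT tumors, and the rest of each drug group lay within the range of the controls.

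Arrdc4 had a log2 fold change of 1.64 in NCTD_IT (SE 0.64, unadjusted p = 0.0212, adjusted p = 0.155), 1.27 in PTX_IT (SE 0.69, adjusted p = 0.795) and 1.58 in MIX_IT (SE 0.64, unadjusted p = 0.0250, adjusted p = 0.309) by edgeR's test. By the intraperitoneal route the values were -0.59 (SE 0.85), 0.14 (SE 0.80) and 0.47 (SE 0.81). None of them passed the adjusted threshold, and the difference between the routes did not pass either, the largest being 2.23 for norcantharidin (SE 1.15, adjusted p = 0.490). Leaving out 1 tumor at a time gave 1.30 to 2.31 for Arrdc4 in NCTD_IT and 1.03 to 2.24 in MIX_IT.

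Txn1 (ENSMUSG00000028367, chr4:57943373-57956411, minus strand) encodes the cytosolic thioredoxin, the protein that Txnip binds. Its level spread little between tumors, with a within-group SD of 0.32 on the log2 CPM scale, against 0.69 for Txnip and 0.90 for Arrdc4. The IP groups had means from 1059 to 1294 CPM and the IT groups from 816 ± 236 CPM in NCTD_IT (SD, n = 4) to 1053 ± 173 CPM in CONTROL_IT (n = 4). Against the control of its route, Txn1 differed by -0.37 (SE 0.22) in NCTD_IT, -0.22 (SE 0.24) in PTX_IT and -0.35 (SE 0.22) in MIX_IT, and by -0.01, 0.28 and 0.10 (SE 0.22 each) in NCTD_IP, PTX_IP and MIX_IP. None passed the test, and the adjusted p of the NCTD_IT value was 0.349. All 3 PTX_IT tumors lay below both PTX_IP tumors in Txn1, at 917, 811 and 991 CPM against 1538 and 1049.6 CPM, as was the case for 9.82% of genes.

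Txn2 (ENSMUSG00000005354, chr15:77799247-77813206, minus strand) encodes the mitochondrial thioredoxin and was the member with the least spread, with a within-group SD of 0.21. It was at its highest in MIX_IT, with 277, 211, 238 and 279 CPM, and at its lowest in CONTROL_IP, with 165 and 141 CPM. The CONTROL_IT tumors held 211, 185, 222 and 169 CPM, so that 3 of the 4 MIX_IT tumors were above every control tumor and the fourth overlapped. In MIX_IT the log2 fold change against CONTROL_IT was 0.35 (SE 0.17, unadjusted p = 0.0604, adjusted p = 0.402). Against MIX_IP, whose tumors held 159 and 195 CPM, it was 0.51 (SE 0.20, unadjusted p = 0.0195, adjusted p = 0.372) without overlap, as in 10.4% of genes. MIX_IT differed from NCTD_IT by 0.39 (SE 0.17, adjusted p = 0.803) and from PTX_IT by 0.41 (SE 0.19, adjusted p = 0.982). In NCTD_IP, at 218 and 188 CPM, Txn2 lay above both controls, as did 16.3% of genes, with a difference of 0.41 (SE 0.19, adjusted p = 0.999).

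Txnrd1 (ENSMUSG00000020250, chr10:82669785-82733546, plus strand) encodes the cytosolic reductase that recycles Txn1. Its means ran from 107 ± 41.9 CPM in PTX_IP (SD, n = 2) to 178 ± 26.7 CPM in CONTROL_IT (n = 4). The 4 CONTROL_IT tumors, at 208, 157, 155 and 194 CPM, were above the 2 CONTROL_IP tumors, at 131 and 103 CPM, as in 10.1% of genes, and the difference of 0.61 (SE 0.30, unadjusted p = 0.0531, adjusted p = 0.956) did not pass the test. Against the control of its route, Txnrd1 differed by -0.42 (SE 0.25) in NCTD_IT, -0.35 (SE 0.27) in PTX_IT and -0.31 (SE 0.25) in MIX_IT, but by -0.05, -0.13 and 0.31 (SE 0.27 each) in NCTD_IP, PTX_IP and MIX_IP. In MIX_IP both tumors, at 154 and 133 CPM, lay above both controls, as in 17% of genes.

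Txnrd2 (ENSMUSG00000075704, chr16:18245134-18297823, plus strand) encodes the mitochondrial reductase that recycles Txn2 and had only 19 to 80 counts per tumor. The CONTROL_IT tumors held 17.8, 11.4, 19.1 and 15.6 CPM of Txnrd2, and the NCTD_IT tumors 8.35, 5.58, 12.4 and 10.4 CPM, with 1 tumor within the range of the controls. The MIX_IT tumors held 8.78, 6.87, 13.4 and 13.2 CPM, and the PTX_IT tumors 14.5, 8.06 and 16.2 CPM. MIX_IP was the highest group, at 20.9 and 14.3 CPM, above both controls at 13.4 and 11.9 CPM, as in 17% of genes.

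The log2 fold change of Txnrd2 was -0.80 in NCTD_IT (SE 0.33, unadjusted p = 0.0272, adjusted p = 0.172), -0.30 in PTX_IT (SE 0.35) and -0.60 in MIX_IT (SE 0.32, adjusted p = 0.449) by edgeR's test. In MIX_IP it was 0.49 (SE 0.34), so the combination differed between the routes by -1.08 (SE 0.51, unadjusted p = 0.0469, adjusted p = 0.665), a sign opposite to that of Txnip. None of these values passed the adjusted threshold. The 4 MIX_IT tumors lay below both MIX_IP tumors in Txnrd2, as in 10.1% of genes, with a difference of -0.74 (SE 0.35, adjusted p = 0.477).

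Over the 5 members other than Txnip and 19 comparisons, 0 of 95 values passed an adjusted p of 0.05 with edgeR, against 0.072% over all genes and comparisons, and 0 passed with DESeq2, against 0.616%. At an unadjusted p below 0.05 there were 8 of the 95 values with edgeR, 5 higher and 3 lower, against 7% over all genes. Besides the comparisons named so far, 0.00801% of genes passed the adjusted threshold between MIX_IT and NCTD_IT and 0.0149% between MIX_IT and MIX_IP, with 0 of the 5 members among them. In NCTD_IT against CONTROL_IT, where 171 of 12480 genes passed (1.37%), 0 of the 5 members did, and 2 of 5 had an unadjusted p below 0.05, against 21.6% of all genes. In MIX_IT against CONTROL_IT 1 of 5 did so, against 13% of all genes, and in PTX_IT against CONTROL_IT 0 did, against 6.35%. By the intraperitoneal route it was 0 of 5 in each drug group against its control, where the share of all genes was 3.59% in NCTD_IP, 5.3% in PTX_IP and 2.94% in MIX_IP. In the 16 comparisons of 2 groups, the tumors did not overlap in 12 of 80 values, against 20.3% over all genes. These include 2 for MIX_IP against CONTROL_IP, both higher, as were 17% of all genes. They include 0 for each IT drug group against CONTROL_IT, where the share of all genes was 16.8% in NCTD_IT, 7.96% in PTX_IT and 9.91% in MIX_IT. Txnip itself did not overlap with its control in MIX_IP, as in 18.9% of genes that were lower, nor in NCTD_IT and MIX_IT, as in 7.82% and 4.93% of genes that were higher.

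Between tumors, Txnip went most with Arrdc4, in the same direction, and with Txnrd2, in the opposite one. These correlations are given as descriptions with no test, since the control and combination tumors by which Txnip was chosen enter them. Over the 23 tumors the log2 CPM of Txnip correlated with that of Arrdc4 with r = 0.69 and rho = 0.66. By route, r was 0.34 for the 8 IP and 0.78 for the 15 IT tumors. With the group means removed it was 0.68, and without the 2 tumors farthest from the median of Txnip, PTX_IP replicate 4 and PTX_IT replicate 16, it was 0.63.

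Txnrd2 gave r = -0.71 and rho = -0.71 with Txnip over all tumors. Its r was -0.65 in the IP tumors, -0.73 in the IT tumors, -0.55 with the group means removed and -0.69 without the same 2 tumors. Txnrd1 gave r = -0.33 and rho = -0.32 over all tumors, weaker than Txn1, but -0.65 for IP tumors, -0.72 for IT tumors and -0.68 with the group means removed. The controls of the routes did not overlap in Txnrd1, as given above, and the pooled value mixes the routes.

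For Txn1 r was -0.49 and rho -0.54, and without the 2 farthest tumors r was -0.53. It was 0.10 within the IP tumors, -0.40 within the IT tumors and 0.01 with the group means removed. Txn2 gave r = 0.18 and rho = 0.11. Tumors of the 8 groups enter these values together, and shared library composition is common to all of them.

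**Figure D3:**
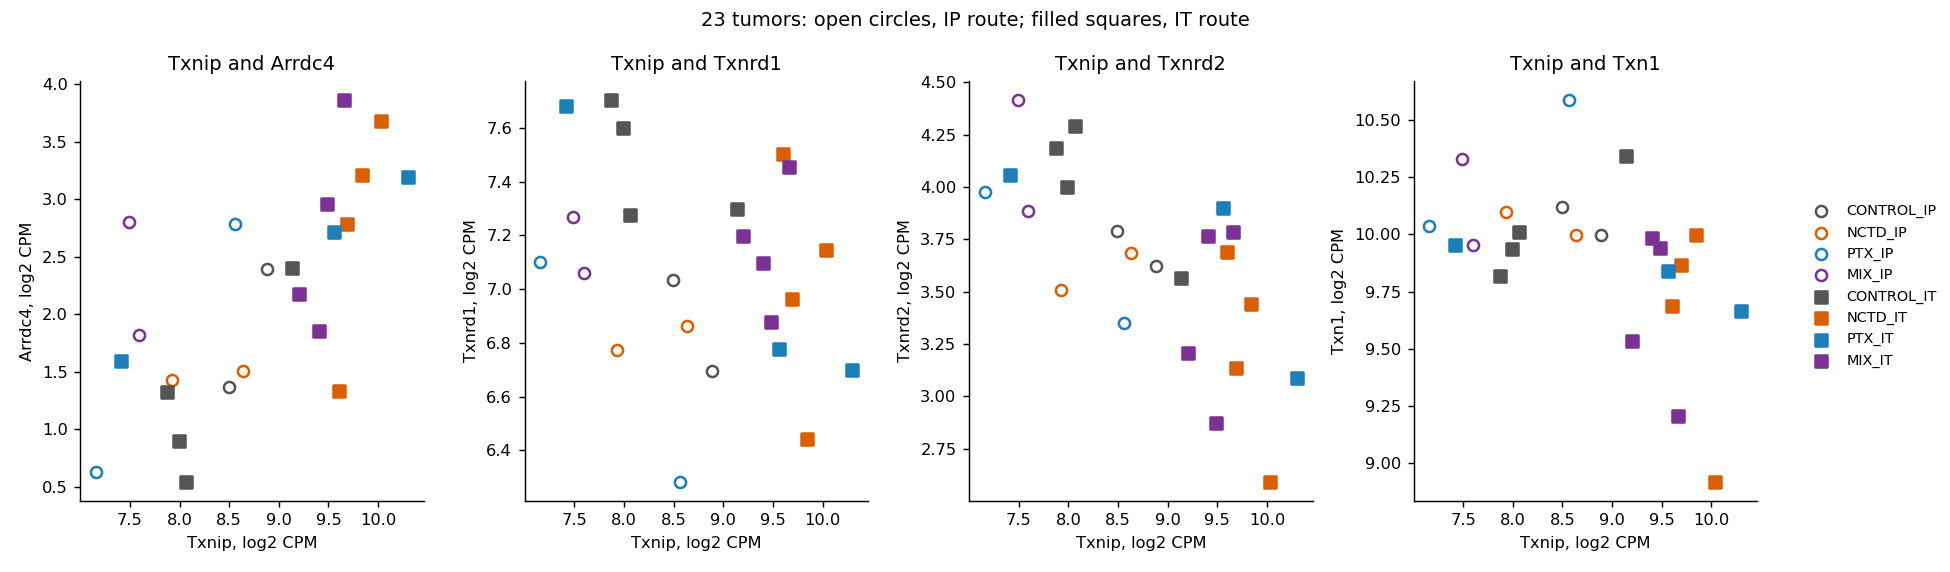
Log2 CPM of Arrdc4, Txnrd1, Txnrd2 and Txn1 (y axes) against log2 CPM of Txnip (x axis) in the 23 tumors; open circles are IP and filled squares IT tumors. Arrdc4 goes up with Txnip (r = 0.69) and Txnrd2 goes down (r = -0.71), while Txnrd1 gives r = -0.72 within the IT tumors and -0.33 over all.

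Txnip was also set against the summed CPM of cell type markers, 6 relations that were chosen after seeing the data and are given as descriptions with no test. With the myeloid sum r was 0.44 over the 23 tumors, 0.70 within the IP tumors, 0.76 within the IT tumors and 0.85 with the group means removed. Without the 2 tumors farthest from the median of Txnip it was 0.26, so the pooled value rests in part on those 2. With the sum of T and NK cell markers r was 0.44 in all, 0.77 for IP and 0.61 for IT tumors, and 0.28 without the 2 tumors. With the 5 endothelial markers, of which all were above 0 in each IT group, r was 0.66 and rho 0.77, with 0.29 in IP and 0.62 in IT tumors, 0.67 without the 2 tumors and 0.26 with the group means removed.

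The endothelial sum was 32.7 to 57.4 CPM in CONTROL_IT, 71.9 to 137 CPM in NCTD_IT, 59.3 to 213 CPM in MIX_IT and 51.9 to 76.4 CPM in PTX_IT. NCTD_IT and MIX_IT, the groups in which every tumor exceeded CONTROL_IT in Txnip, thus exceeded it in this sum as well. By the intraperitoneal route the sum was 41.61 to 61.35 CPM in CONTROL_IP, 45.09 to 50.61 CPM in NCTD_IP, 46.95 to 63.48 CPM in PTX_IP and 35.22 to 58.35 CPM in MIX_IP. The 7 fibroblast markers summed to 109 to 369 CPM in CONTROL_IT against 391 to 1681 CPM in NCTD_IT and 494 to 8601 CPM in MIX_IT. In CONTROL_IP they summed to 421 to 1127 CPM. Their sum correlated with Txnip with r = 0.49 over all tumors, 0.51 without the 2 tumors and 0.37 with the group means removed. Melanocyte markers gave r = -0.45 in all, 0.51 in IP and -0.41 in IT tumors, and erythroid markers -0.34 in all, -0.08 in IP and -0.67 in IT tumors, and -0.53 with the group means removed. The part of these cells in the Txnip values was not tested beyond the covariate above.

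**Figure D4:**
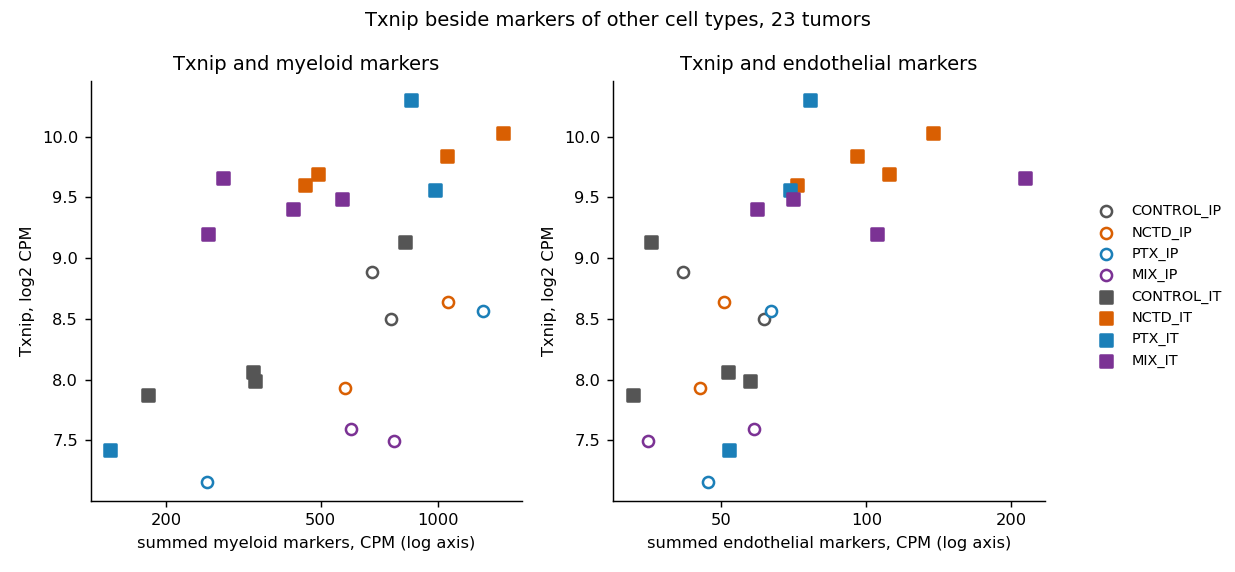
Log2 CPM of Txnip (y axis) against the summed CPM of the myeloid and of the endothelial markers (x axes, log scale) in the 23 tumors, by route. The tumors with the lowest myeloid sums of the PTX groups, 143.8 and 255.5 CPM, are those with 170.3 and 142 CPM of Txnip. All NCTD_IT and MIX_IT tumors lie above 59 CPM in the endothelial sum, as do some tumors of CONTROL_IP, PTX_IP and PTX_IT.

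Among the 13394 other genes that passed the filter, those whose levels were most like Txnip over the 23 tumors, by Spearman correlation of log2 CPM and as a description only, were Tox4 (0.94), Macf1 (0.91), Efhd2 (0.91), Leprot (0.91) and the noncoding RNA Mir22hg (0.91). Macf1 encodes a protein that links microtubules to actin. Those most opposite were Wdfy1 (-0.95), Pdap1 (-0.93) and Eef1g (-0.93), the last a subunit of translation elongation factor 1. These 8 kept their sign within each route, with values of at least 0.79 or at most -0.88. A correlation of 0.8 or above was found for 146 genes and of -0.8 or below for 177, and Arrdc4, at 0.66, ranked 678 of 13394. Txnrd2 ranked 12887, Txn1 11974, Txnrd1 10224 and Txn2 5604.

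The rest of the pathway was followed in 5 lists with 50 genes, of which 47 were tested. In 18 of the 19 comparisons 0 of the 47 passed an adjusted p of 0.05. In NCTD_IT against CONTROL_IT, 1 fell (2.13%, against 1.37% of all genes), namely Txnl4a, a thioredoxin-fold protein of the spliceosome, at -0.92 (SE 0.20, adjusted p = 0.0414 by edgeR). Txnl4a stood at 88.3 ± 18.1 CPM in CONTROL_IT (SD, n = 4) and 46.5 ± 2.92 CPM in NCTD_IT (n = 4), with 50.3 ± 8.48 CPM in MIX_IT (n = 4) and 58.9 ± 17.8 CPM in PTX_IT (n = 3). The call was lost without any 1 of 7 of the 8 tumors, with the adjusted p between 0.0418 and 0.142 and the log2 fold change between -1.02 and -0.80, and with Xist as a covariate the value was -0.12 (adjusted p = 0.967). In MIX_IT the value of Txnl4a was -0.81 (SE 0.20, adjusted p = 0.142). DESeq2 called 7 of the 47 genes in NCTD_IT, against 10.6% of all genes.

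In NCTD_IT the median log2 fold change was -0.08 over the 15 substrates and partners of thioredoxin, -0.16 over the 12 other thioredoxin-fold proteins tested, 0.28 over the 5 glutaredoxins with glutathione reductase, 0.43 over the 5 other arrestin-domain proteins tested and 0.01 over the 10 regulators of Txnip and of glucose transport, against 0.03 over all genes. At an unadjusted p below 0.05 were 11 of the 47 genes there, 8 in MIX_IT, 4 in PTX_IT, 1 in MIX_IP and 0 in NCTD_IP and PTX_IP. Over all genes the shares were 21.6%, 13%, 6.35% and 2.94% in the first 4 of these comparisons. The gene next to Txnl4a in NCTD_IT was Prdx4, the peroxiredoxin of the endoplasmic reticulum, at -0.65 (SE 0.17, adjusted p = 0.0572). In PTX_IT the smallest p-values belonged to Map3k5, the stress kinase ASK1 that thioredoxin holds inactive, at 1.21 (SE 0.40), and Arrb2, a beta-arrestin, at 1.02 (SE 0.36), both with an adjusted p of 0.785. In MIX_IT Txndc11 followed at 0.66 (SE 0.18, adjusted p = 0.165).

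By the intraperitoneal route the genes with the smallest p were Nlrp3, the inflammasome sensor that Txnip is known to bind, at -1.91 (SE 1.04) and Arrdc3 at 0.53 (SE 0.30) in NCTD_IP, Klf10 at -0.39 (SE 0.21) and Txndc16 at -0.42 (SE 0.27) in PTX_IP, and Srxn1, which repairs overoxidized peroxiredoxins, at 1.06 (SE 0.37, adjusted p = 0.999) and Arrdc1 at -0.86 (SE 0.49) in MIX_IP. None passed the test. Set side by side by route, Prdx1, an abundant cytosolic peroxiredoxin, differed by 0.60 between MIX_IT and MIX_IP (SE 0.16, adjusted p = 0.158), and Nlrp3 by 4.24 between NCTD_IT and NCTD_IP (SE 1.33, adjusted p = 0.232). The transcription factor gene Mlxipl, which encodes ChREBP, and Arrdc5 and Nme8 were too low to be tested.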

How the data were processed

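Libraries of the 3′ ends of polyadenylated RNA were made from 23 tumors. Per the labels and the study's methods, reads were trimmed with Trimmomatic and aligned to GRCm39 with STAR 2.7.11b, and the authors deposited raw counts per gene without normalization. The sources used here do not give the strand setting, how multi-mapping reads were handled, or whether molecular identifiers were used. The 6 genes, the gene lists and the tests were chosen with earlier results of these data known. All columns of tumor values were used. 1 item is not reported here.

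These counts were tested with edgeR 4.0.16, which uses limma 3.58.1, under R 4.3.3. Genes were kept by filterByExpr (minimum count 10, minimum total 15), which left 12424 genes in the 8 IP tumors, 12480 in the 15 IT tumors and 13395 in all 23. Libraries were scaled by TMM, and two-sided quasi-likelihood tests were run in a model of the 4 groups of each route, or of all 8 groups for comparisons between routes, with Benjamini-Hochberg adjustment over all genes and a threshold of 0.05. The standard errors (SE) were computed from the log2 fold change and the F statistic, and log2 CPM used a prior count of 2. Correlations of Txnip were planned with permutation tests but are given without p-values, since the tumors by which Txnip was chosen enter them. The script was tested on simulated data. Promoters of 250 bases were read from GRCm39 with GENCODE vM39. Named besides the 6 genes were, for each comparison, list genes with an adjusted p below 0.05 or else the 2 with the smallest p, the 5 and 3 genes with the highest and lowest Spearman correlation with Txnip, and sex-linked genes. In NCTD_IT the second list gene by p was named as well. The alternatives tried were DESeq2 1.42.0, its size factors, no filter on low counts, a log2 CPM prior count of 0.5 for correlations, Xist or the myeloid marker sum as a covariate, all 23 tumors in 1 model, and leaving out each tumor in turn.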

Additional observations from a re-analysis of the deposited data

Results flagged for a closer look

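Txnip in CONTROL_IT replicate 10 stood at 562 CPM, far from the other 3 tumors of its group, with a gap of 0.899 of the whole range of the group, above the limit of Dixon's test for 4 samples. It was the 1 such case among 18 groups of 4 tumors examined over the 6 members, and chance alone gives about 1 in 20.

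The effect of the combination on Txnip differed between the routes by 2.24 on the log2 scale. Both MIX_IP tumors were below both of their controls, as in 18.9% of genes. All 4 MIX_IT tumors were above all 4 of theirs, as in 4.93% of genes. The difference between the routes was not tested, since Txnip was chosen for it.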

How the results depend on the processing

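No paired analysis was possible because no replicate number is shared between tumors. Among the 5 members other than Txnip, 0 passed in any comparison under any alternative. Txnip passed without the filter on low counts in NCTD_IT against NCTD_IP and in PTX_IT against PTX_IP (1 member called in each, against 0 as reported), where its SE was smaller than with the filter, and the cause was not tested. Its adjusted p in NCTD_IT against NCTD_IP was 0.0662 with DESeq2, 0.282 with DESeq2 size factors and 0.0941 with the myeloid covariate. In PTX_IT against PTX_IP it was 0.9999 with DESeq2 size factors and 0.334 with the myeloid covariate, and Txnip did not pass with DESeq2 either. The count of list genes called in NCTD_IT against CONTROL_IT was 1 as reported, 7 with DESeq2, 5 without the filter, 3 with all 23 tumors in 1 model, 0 with either covariate and 0 to 1 without 1 tumor, which is 2.13% of the list genes tested as reported and 14.9%, 10.4% and 6.38% under the next 3 settings, against 1.37%, 10.6%, 4.43% and 5.8% of all genes. The 5 were Txnl4a, Msrb3, Map3k5, Arrb2 and Nlrp3, and the 3 were Txnl4a, Prdx4 and Prdx6, named here after their values were seen; the causes were not tested. Fold changes of the 6 members moved by more than 1 within-group SD in 41 of 115 values with Xist as a covariate. In 0 of 115 they did so with DESeq2, its size factors or no filter. Leaving out 1 tumor moved 20 of 770 and changed 75 signs, 6 of them of Txnip. The totals of 115 and 770 also hold values of Txnl4a, whose shift was not measured against an SD. The correlations kept their sign under other scaling and prior count. Depth limits Arrdc4 and Txnrd2 most.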
